A study of Mus musculus with 10 samples.

Results

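Transcripts of 10 enzymes of glycolysis were examined in pancreatic islets of mice with and without Fitm2 in β cells. The genes were chosen by name, as the rows of the expression table for Gpi1, Pfkl, Pfkm, Pfkp, Aldoa, Tpi1, Gapdh, Pgk1, Eno1 and Pkm, which are 10 of the 47340 genes listed. All 10 were among the 13065 genes tested, those averaging 1 FPKM or more in either group. FPKM (fragments per length of transcript and per number of mapped fragments) is scaled by transcript length, so levels of different genes are set side by side below on that scale.

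Glycolysis splits glucose into pyruvate in the cytosol. After glucose is phosphorylated, glucose-6-phosphate isomerase makes fructose-6-phosphate, phosphofructokinase commits it to the pathway, and aldolase and triose phosphate isomerase turn the product into glyceraldehyde-3-phosphate. Gapdh, Pgk1, phosphoglycerate mutase, enolase and pyruvate kinase carry this on to pyruvate and make NADH and ATP. In β cells, the ATP that follows from glucose breakdown closes potassium channels and starts insulin secretion, and lactate dehydrogenase is known to be kept low.

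The islets came from male mice, 12 wk old and fed chow, with 5 mice and 5 libraries per group. FL mice were floxed controls with loxP sites in both copies of Fitm2, which encodes the endoplasmic reticulum protein FIT2, and the genotype label calls them wild type. KO mice (βFIT2KO) had the same floxed alleles plus the Cre transgene B6.Cg-Tg(Ins2-cre)25Mgn/J, in which a rat insulin promoter drives Cre. Islets with Cre and without floxed Fitm2 were not among these libraries, so effects of Cre and of the loss of Fitm2 cannot be told apart. Islets recovered overnight in culture before RNA was taken, and they hold other cell types than β cells. In such bulk samples, fewer cells of a type and less RNA per cell cannot be told apart.

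Fitm2, the targeted gene, ran from 15.5 to 37.1 FPKM over FL mice and from 4.30 to 9.13 FPKM over KO mice, with no overlap. Summed FPKM were 646233 to 675470 in FL and 627084 to 653292 in KO. FPKM do not hold read numbers, so the depth is unknown in reads. The spacing of values under 0.3 FPKM put FL mouse 1 as the shallowest library and KO mouse 5 as the deepest, at 2.05 times its depth. No 2 libraries were identical. KO mouse 3 was the highest KO mouse for 9 of the 10 enzymes, so their fold changes, the main shares and the counts of the gene lists are also given without this mouse. It was singled out from these same values, so all results and p-values without it are a description and add no support.

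Of the 10 enzymes, 9 fell in KO and 0 rose at an adjusted p of at most 0.05 from limma, Pfkp being the exception. Over all tested genes, 16.5% were called lower in KO and 9.05% higher, which were 2150 and 1183 genes. Rescaling by median ratio turned this split to 1516 lower and 1625 higher, and 9 of the 10 enzymes were still called lower. The enzymes were listed with results of these libraries known, so their count is a description. The median log2 fold change of the 10 was -0.58, beside -0.06 over all tested genes. Without KO mouse 3 the same count of 9 was called lower, and the median was -0.71, beside -0.06 over all tested genes. All KO mice lay below all FL mice in 5 of the 10 enzymes (Pfkl, Pfkm, Aldoa, Gapdh and Pkm), as in 12.5% of all tested genes. With KO mouse 3 set aside, this held for 9 of the 10, and for 15.6% of all tested genes.

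Levels of the 10 enzymes spanned from Aldoa, at 1542 ± 104 FPKM in FL, to Pfkm, at 33.0 ± 1.54 FPKM in FL (SD, n = 5). Gapdh, Eno1 and Pkm followed Aldoa at 670.4 ± 36.2, 569 ± 42.3 and 409 ± 9.46 FPKM in FL (SD, n = 5). Tpi1 and Gpi1 came next, at 318 ± 19.8 and 314 ± 36.3 FPKM in FL, and these neighbours in the order did not differ beyond their spread (SD, n = 5). The enzymes with the lowest levels were Pfkl, Pgk1, Pfkp and Pfkm.

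**Figure D1:**
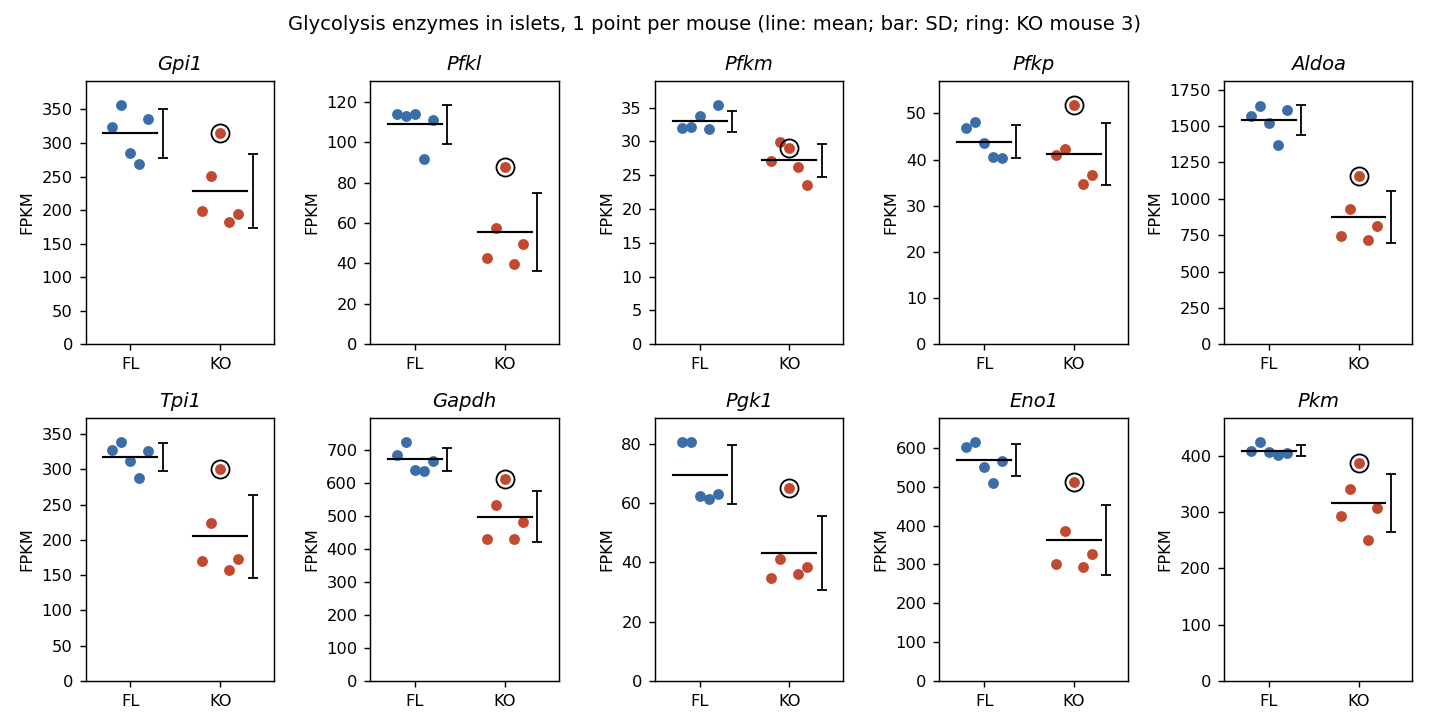
FPKM of each enzyme (vertical axes, linear and from 0) in FL and KO islets, with 1 point per mouse ordered from mouse 1 on the left to mouse 5 on the right. Lines are means and bars SD over 5 mice, and the ring marks KO mouse 3, which is the highest KO point in 9 of the 10 panels.

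Gpi1 encodes glucose-6-phosphate isomerase (chr7:34201330-34230336 on the minus strand of GRCm38, as are all positions below in that build). FL mice 1 to 5 were at 323, 357, 285, 269 and 336 FPKM, and KO mice 1 to 5 at 198, 251, 314, 183 and 194 FPKM. KO mice 1, 2, 4 and 5 were below all FL mice, and KO mouse 3 was within the FL range. Gpi1 fell by 0.48 ± 0.14 on the log2 scale (SE; adjusted p = 0.0312 from limma), and by 0.61 ± 0.11 without KO mouse 3 (adjusted p = 0.00356). The call was lost in 10 of 21 other settings, among them those without FL mouse 1, 2 or 5 and without KO mouse 1, 4 or 5. Over all 21, adjusted p from limma or the rank test ran from 0.00356 to 0.102, with log2 fold changes from -0.61 to -0.41.

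Phosphofructokinase, the rate-setting step, is built from 3 isozymes named after liver, muscle and platelet. The liver type, Pfkl (chr10:77986947-78010083, minus strand), showed the largest log2 fold change of the 10 enzymes, also in all 21 other settings. In FL mice 1 to 5 it was at 114, 113, 114, 91.9 and 111 FPKM, and in KO mice 1 to 5 at 42.5, 57.7, 87.6, 39.8 and 49.4 FPKM. The groups did not overlap, but KO mouse 3 lay close to FL mouse 4, the lowest FL mouse. Pfkl fell by 1.02 ± 0.18 on the log2 scale (SE; adjusted p = 0.00237 from limma), and by 1.19 ± 0.11 without KO mouse 3 (adjusted p = 6.34e-05). Its KO mean of 55.4 ± 19.3 FPKM was 0.509 times the FL mean of 109 ± 9.59 FPKM (SD, n = 5).

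The muscle type, Pfkm (chr15:98092589-98132451, plus strand), was at 31.95, 32.1, 33.8, 31.8 and 35.4 FPKM in FL mice 1 to 5. KO mice 1 to 5 were at 27.1, 29.9, 29.1, 26.2 and 23.6 FPKM, all below FL, and here KO mouse 2 and not KO mouse 3 was the highest. Pfkm fell by 0.27 ± 0.06 on the log2 scale (SE; adjusted p = 0.0106 from limma), and by 0.30 ± 0.07 without KO mouse 3 (adjusted p = 0.0107). The platelet type, Pfkp (chr13:6579768-6648777, minus strand), was at 46.9, 48.2, 43.5, 40.7 and 40.3 FPKM in FL mice 1 to 5 and at 40.9, 42.4, 51.8, 34.6 and 36.6 FPKM in KO. These ranges overlapped, and KO mouse 3 was the highest of all 10 mice. The log2 fold change of Pfkp was -0.10, with a 95% interval from -0.32 to 0.12 and an adjusted p of 0.516 from limma. Without KO mouse 3 it was -0.18 ± 0.08 (SE; adjusted p = 0.12 from limma).

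As a share of the summed FPKM of the 3 phosphofructokinase genes, Pfkl made up 59.1, 58.5, 59.7, 55.9 and 59.5% in FL mice 1 to 5. In KO mice 1 to 5 it made up 38.4, 44.4, 52.0, 39.6 and 45.1%. All KO shares were below all FL shares, with means of 58.5 ± 1.54% in FL and 43.9 ± 5.38% in KO (SD, n = 5; exact two-sided permutation test, p = 0.00794, the smallest that 5 against 5 mice can give). Such tests were run on 21 shares, of isozymes within 4 steps and of each enzyme within the 10, and their p-values are unadjusted. The Pfkp share was higher, at 33.6 ± 2.32% in KO and 23.6 ± 1.45% in FL, without overlap (SD, n = 5; exact permutation p = 0.00794). The Pfkm share was 22.5 ± 3.37% in KO and 17.8 ± 1.30% in FL (SD, n = 5; exact permutation p = 0.0317), with KO mouse 3, at 17.2%, inside the FL range. This last difference no longer passed without FL mouse 1 or without FL mouse 2 (exact permutation p = 0.0556 in both). Setting KO mouse 3 aside, the KO means of the Pfkl, Pfkp and Pfkm shares were 41.9, 34.4 and 23.8%. That mouse was set aside for its high enzyme values, so these means are a description. Summed over the 3 genes, phosphofructokinase FPKM was 186 ± 12.3 in FL and 124 ± 27.2 in KO (SD, n = 5; exact permutation p = 0.0159).

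**Figure D2:**
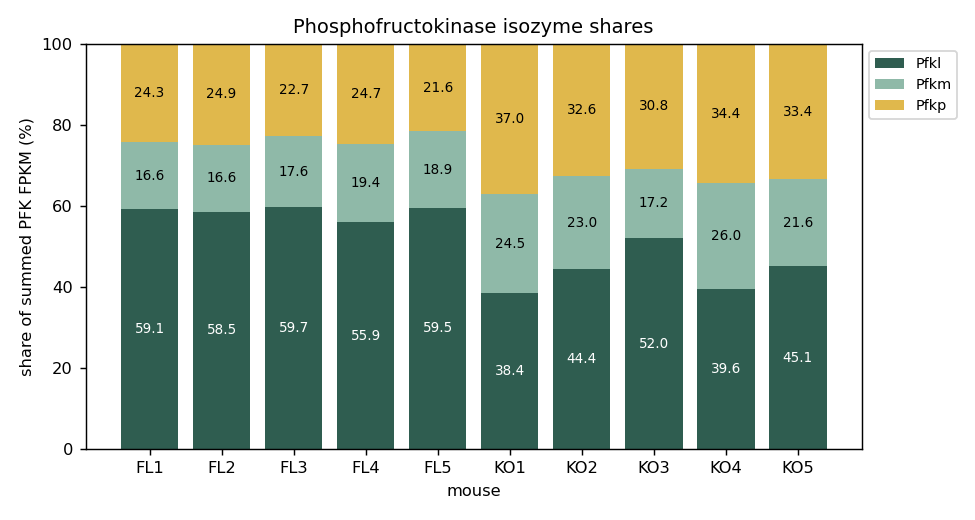
Share of the summed phosphofructokinase FPKM (vertical axis, percent) held by Pfkl, Pfkm and Pfkp in each mouse, with the share printed in each segment. Pfkl held 55.9 to 59.7% in FL mice and 38.4 to 52.0% in KO mice.

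Aldolase A, from Aldoa (chr7:126795234-126800751, minus strand), splits fructose-1,6-bisphosphate into triose phosphates. FL mice 1 to 5 were at 1566, 1636, 1522, 1373 and 1611 FPKM, and KO mice 1 to 5 at 746, 933, 1155, 719 and 814 FPKM. No KO mouse reached the FL range. Aldoa fell by 0.84 ± 0.12 on the log2 scale (SE; adjusted p = 0.000562 from limma), and by 0.94 ± 0.09 without KO mouse 3 (adjusted p = 5.56e-05). It was 37.8 ± 0.70% of the summed FPKM of the 10 enzymes in FL and 33.0 ± 0.25% in KO, without overlap (SD, n = 5; exact permutation p = 0.00794).

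Tpi1 (chr6:124810586-124814296, minus strand) encodes triose phosphate isomerase, which interconverts both products of aldolase. It was at 327, 339, 311, 287 and 325 FPKM in FL mice 1 to 5, and at 170, 224, 300.4, 157 and 173 FPKM in KO mice 1 to 5. KO mouse 3 lay above FL mouse 4, and the other KO mice lay below all FL mice. Tpi1 fell by 0.67 ± 0.15 on the log2 scale (SE; adjusted p = 0.0095 from limma), and by 0.82 ± 0.10 without KO mouse 3 (adjusted p = 0.000317).

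Gapdh (chr6:125161715-125166467, minus strand) oxidises glyceraldehyde-3-phosphate and makes NADH, and it often serves as a reference transcript. FL mice 1 to 5 were at 685, 724, 639, 637 and 667 FPKM, and KO mice 1 to 5 at 429, 534, 611, 431 and 481 FPKM, without overlap. It fell by 0.44 ± 0.09 on the log2 scale (SE; adjusted p = 0.00656 from limma), and by 0.52 ± 0.08 without KO mouse 3 (adjusted p = 0.00103). Gapdh was 16.5 ± 0.46% of the summed FPKM of the 10 enzymes in FL and 18.9 ± 0.98% in KO, with every KO mouse above every FL mouse (SD, n = 5; exact permutation p = 0.00794).

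Pgk1 (chrX:106187100-106203699, plus strand) encodes phosphoglycerate kinase, the first step to return ATP. FL mice 1 to 5 were at 80.7, 80.6, 62.4, 61.2 and 63.1 FPKM, so that FL mice 1 and 2 lay apart from the other 3. KO mice 1 to 5 were at 34.8, 41.0, 65.1, 36.04 and 38.4 FPKM, and KO mouse 3 was above FL mice 3, 4 and 5. Pgk1 fell by 0.71 ± 0.16 on the log2 scale (SE; adjusted p = 0.00924 from limma), and by 0.86 ± 0.10 without KO mouse 3 (adjusted p = 0.000279).

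Enolase 1, from Eno1 (chr4:150236721-150248879, plus strand), makes phosphoenolpyruvate. It was at 602, 616, 551, 510.0 and 565 FPKM in FL mice 1 to 5, and at 301, 387, 511, 292 and 328 FPKM in KO mice 1 to 5. KO mouse 3 was level with FL mouse 4, the lowest FL mouse, and the other KO mice were below all FL mice. Eno1 fell by 0.67 ± 0.14 on the log2 scale (SE; adjusted p = 0.00512 from limma), and by 0.80 ± 0.09 without KO mouse 3 (adjusted p = 0.000213).

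Pkm (chr9:59656368-59679375, plus strand) encodes muscle pyruvate kinase, which yields pyruvate and ATP. FL mice 1 to 5 were at 408, 426, 407, 401 and 405 FPKM, the tightest FL group of the 10 enzymes, with an SD of 2.31% of the mean. KO mice 1 to 5 were at 294, 342, 387, 251 and 307 FPKM, all below FL, with an SD of 16.3% of the mean. Pkm fell by 0.39 ± 0.10 on the log2 scale (SE; adjusted p = 0.0145 from limma), and by 0.46 ± 0.08 without KO mouse 3 (adjusted p = 0.00261).

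In order of log2 fold change, the enzymes ran Pfkl, Aldoa, Pgk1, Tpi1, Eno1, Gpi1, Gapdh, Pkm, Pfkm and Pfkp. Of the 9 pairs of neighbours in that order, only Eno1 and Gpi1 differed at an unadjusted p of 0.0159 (exact permutation test on the difference of log2 FPKM, n = 5 per group), while the others had p from 0.0635 for Pfkl and Aldoa to 0.937 for Tpi1 and Eno1. For the other 8 pairs a difference larger than the spread between mice was not detected. Relative to the sum of the 10 enzymes, Pfkl and Aldoa held smaller shares in KO, while Gpi1, Pfkm, Pfkp, Gapdh and Pkm held larger shares (exact permutation p from 0.00794 to 0.0317, n = 5). The larger share of Pfkm did not pass without FL mouse 1 or FL mouse 2 (exact permutation p = 0.0635 in both). The calls on these shares were the same without KO mouse 3 (exact permutation p from 0.00794 to 0.0476). The shares of Tpi1, Pgk1 and Eno1 gave exact permutation p of 0.619, 0.429 and 0.302 (n = 5). Without KO mouse 3 those of Tpi1 and Eno1 were smaller in KO (exact permutation p = 0.0476 and p = 0.0238). That mouse held the highest Tpi1 and Eno1 shares in KO and was set aside for its high enzyme values. The smaller shares without it are thus a description.

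**Figure D3:**
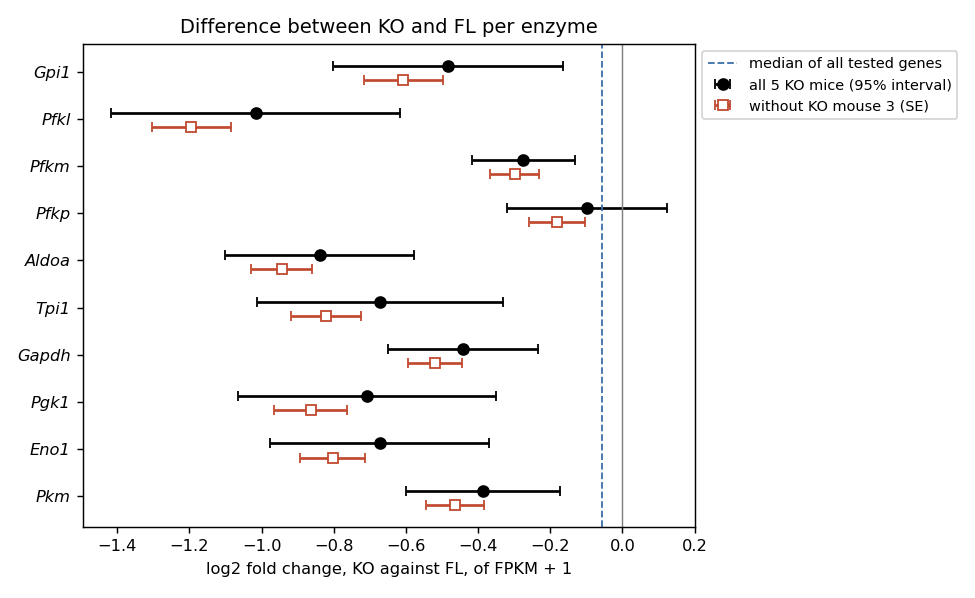
Log2 fold change of each enzyme, KO against FL, on the log2(FPKM + 1) scale, with all mice (filled, bars are 95% intervals) and without KO mouse 3 (open, bars are SE). The dashed line is the median of all tested genes at -0.06, and the interval of Pfkp, from -0.32 to 0.12, is the only one to reach 0.

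The enzymes moved together from mouse to mouse. On the log2(FPKM + 1) scale, KO mouse 3 was above the KO mean for all 10 enzymes, by 0.10 for Pfkm to 0.71 for Pfkl, with a mean deviation of 0.44. KO mouse 2 was above the KO mean for 9 of the 10, with a mean deviation of 0.11. KO mice 4 and 5 were below it for all 10, with mean deviations of -0.26 and -0.12, and KO mouse 1 was below it for 8, with -0.17. Among FL mice, FL mouse 2 was above the FL mean for 9 of the 10 and FL mouse 4 below it for all 10, with mean deviations of 0.10 and -0.13. FL mice 1, 3 and 5 had mean deviations of 0.06, -0.03 and 0.01.

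**Figure D4:**
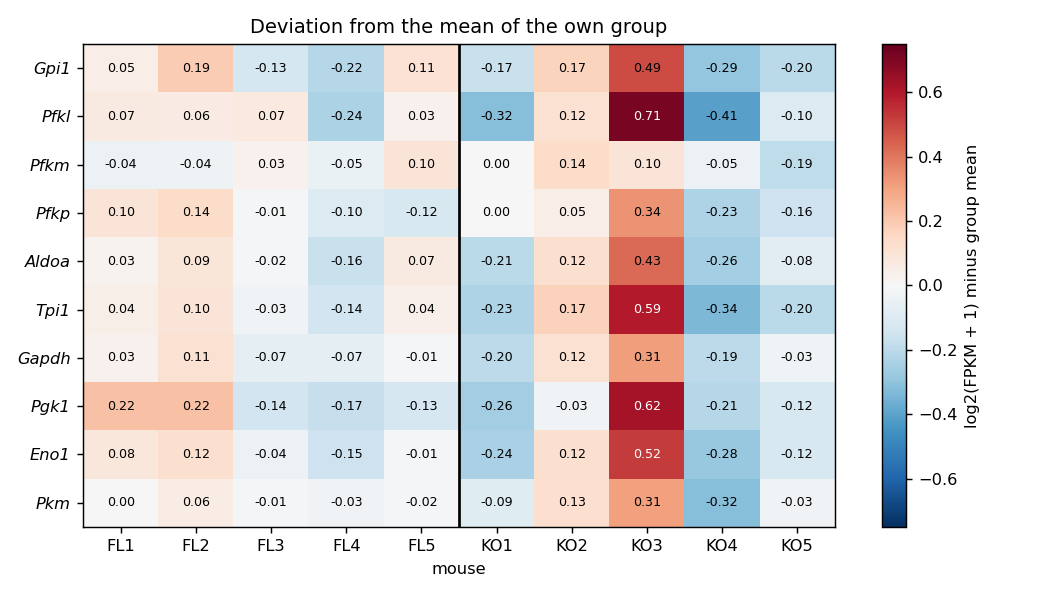
Deviation of each mouse from the mean of its own group (colour and printed number, log2 units) for each enzyme. The column of KO mouse 3 is positive for all 10 enzymes, and those of FL mouse 4, KO mouse 4 and KO mouse 5 are negative for all 10.

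KO mouse 3 was the highest KO mouse for 9 of the 10 enzymes, and it was so for 26.7% of all tested genes. It lay above the mean of the other 4 KO mice by 0.12 to 0.89 on the log2 scale over the 10 enzymes. The median was 0.57, beside 0.04 over all tested genes. KO mouse 3 was singled out from these same values, so this distance is a description. FL mouse 4 was the lowest FL mouse for 9 of the 10, and for 20.3% of all tested genes. Over all tested genes, KO mouse 2 was most often the highest KO mouse (35.5%) and KO mouse 5 most often the lowest (35.5%). The SD between mice was larger in KO than in FL for all 10 enzymes, with a median ratio of 2.80, while over all tested genes 56.9% had the larger SD in KO and the median ratio was 1.104. Without KO mouse 3 the SD was larger in KO for 9 of the 10, Pgk1 being the exception, with a median ratio of 1.71, beside 54.5% and 1.07 over all tested genes.

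The deviations of each enzyme were set against the mean deviation of the other 9 over the 10 mice, which share the same libraries. Pearson's r was from 0.89 to 0.996 for 9 enzymes, highest for Eno1, and 0.51 for Pfkm. Without KO mice 3 and 4, which were farthest from the median, r was 0.98 for Eno1, 0.97 for Tpi1 and 0.94 for Aldoa, but 0.69 for Pgk1, 0.61 for Pfkp and 0.39 for Pfkm. The muscle phosphofructokinase thus followed the other enzymes least closely in both sets of mice, as a description and without a test.

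Of 9639 other genes averaging 5 FPKM or more, those whose deviations were most like the mean of the 10 enzymes over the 10 mice were Nfat5, P4ha1, Atp2a2, Gm30173 and Lrrc55, with r of 0.96, 0.96, 0.94, 0.94 and 0.94. Nfat5, a transcription factor known for the response to osmotic stress, was at 19.3 to 21.9 FPKM in FL and at 20.6, 22.0, 29.1, 19.6 and 20.9 FPKM in KO mice 1 to 5. P4ha1, a prolyl hydroxylase subunit of collagen synthesis, was at 108 to 125 FPKM in FL and at 59.1, 66.4, 102, 52.8 and 60.3 FPKM in KO. Atp2a2, the calcium pump of the endoplasmic reticulum, is listed at 0 in all FL libraries, which may be a failed estimate and not a level, so its likeness rests on the KO mice alone, at 669.9 to 828 FPKM. Lrrc55 was at 0.00945 to 0.111 FPKM in FL and at 12.4 to 23.0 FPKM in KO, so it was ranked only through its KO level and its likeness too rests mainly on the KO mice. For these 5 genes r was 0.71 to 0.87 without KO mice 3 and 4.

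For each enzyme, the promoter was read from RefSeq windows on GRCm38.p6 as the 250 bases before an annotated start, and all 10 enzymes matched, with 18 windows. They were searched on both strands for ACGTG and GCGTG, the core letters known to be bound by hypoxia-inducible factors. At least 1 of these stood in 13 of the 18 windows (72.2%), and in none of Tpi1 or Gpi1. Some windows of Eno1, Aldoa and Pfkm overlap and hold the same letters, which are counted in each window. Of all 32851 windows of this length 38.6% held one, and of the 12441 windows of tested genes 55.9%. The letters ACGTG also form part of CACGTG, an E-box, which stood in 1 window of Pfkm and in 6.02% of all windows. A match is a description of the letters and not a bound site.

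The sequences below show the windows of the phosphofructokinase isozyme with the largest difference (Pfkl) and of the one that did not pass (Pfkp), of Aldoa and Pgk1, and of Tpi1, which fell without holding these letters. They run 5′ to 3′ on the gene's strand, without bases that GENCODE M21 places in an exon of the gene, and capitals mark ACGTG or GCGTG or their reverse complements. Aldoa has 3 windows, of which 1 with a match is shown, another overlaps it and holds the same letters, and the one at chr7:126800448-126800697 holds none.
Pfkl, chr10:78009808-78010004, minus strand: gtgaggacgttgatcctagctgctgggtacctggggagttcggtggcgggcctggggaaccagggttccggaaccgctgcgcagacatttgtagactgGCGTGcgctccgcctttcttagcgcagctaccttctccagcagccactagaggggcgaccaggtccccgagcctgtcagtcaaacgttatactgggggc
Pfkp, chr13:6648778-6649021, minus strand: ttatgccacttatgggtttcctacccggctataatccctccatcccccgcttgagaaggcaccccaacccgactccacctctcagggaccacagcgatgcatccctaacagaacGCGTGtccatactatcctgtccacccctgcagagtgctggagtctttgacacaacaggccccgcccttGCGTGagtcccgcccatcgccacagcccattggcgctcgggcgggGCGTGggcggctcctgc
Aldoa, chr7:126799255-126799504, minus strand: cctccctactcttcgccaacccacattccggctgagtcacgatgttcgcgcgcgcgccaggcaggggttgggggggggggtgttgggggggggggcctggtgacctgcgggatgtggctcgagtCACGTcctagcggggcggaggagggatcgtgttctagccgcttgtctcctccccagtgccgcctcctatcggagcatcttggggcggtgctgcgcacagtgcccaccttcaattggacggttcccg
Tpi1, chr6:124814297-124814408, minus strand: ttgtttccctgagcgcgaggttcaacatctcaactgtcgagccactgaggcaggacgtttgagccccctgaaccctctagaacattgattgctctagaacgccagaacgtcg
Pgk1, chrX:106186850-106187099, plus strand: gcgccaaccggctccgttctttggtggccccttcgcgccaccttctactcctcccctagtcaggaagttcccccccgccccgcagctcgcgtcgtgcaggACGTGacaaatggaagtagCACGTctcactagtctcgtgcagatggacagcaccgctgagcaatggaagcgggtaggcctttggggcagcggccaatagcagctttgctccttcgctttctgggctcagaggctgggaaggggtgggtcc
Pfkl had 1 match, 99 bases before the start, and Pfkp had 3, at 136, 68 and 23 bases. Pgk1 had 2 matches to ACGTG on opposite strands, 150 and 131 bases before the start, and the Aldoa window shown had 1 at 126 bases. Pfkl, Pfkm, Aldoa, Gapdh, Pgk1, Eno1 and Pkm held a match and fell. Pfkp, with 3 matches, did not pass the test, and Tpi1 and Gpi1, with none, fell. Whether matches and fold changes go together was not tested.

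Isozymes and steps outside the list are shown by 11 further genes, of which 7 were tested, 2 fell and 1 rose. For this and the lists that follow, the shares over all tested genes were 16.5% lower and 9.05% higher. Pgam1, the phosphoglycerate mutase between Pgk1 and enolase, was at 33.6, 37.7, 33.6, 31.1 and 35.8 FPKM in FL mice 1 to 5 and at 21.5, 22.8, 35.5, 21.5 and 21.02 FPKM in KO mice 1 to 5. It fell by 0.50 ± 0.13 on the log2 scale (SE; adjusted p = 0.0169 from limma), and KO mouse 3 was inside the FL range. Aldoc, the brain aldolase, fell by 0.63 ± 0.17 (SE; adjusted p = 0.0192 from limma), from 27.9 ± 4.08 to 18.1 ± 5.39 FPKM, again with KO mouse 3, at 27.0 FPKM, inside the FL range (SD, n = 5). The counts were again 2 lower and 1 higher without KO mouse 3, and Pgam1 and Aldoc fell by 0.63 and 0.78. With the replicate block 1 gene of this list was called lower, and with the exact Wilcoxon rank test 0 were. At a minimum mean of 5 FPKM 0 were called higher.

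Eno2, the neuronal enolase, averaged 118 ± 8.57 FPKM over FL mice and 107 ± 12.8 FPKM over KO mice (SD, n = 5). Its log2 fold change was -0.15 without a call (adjusted p = 0.219 from limma). Its share of enolase FPKM was 17.2 ± 1.83% in FL and 23.1 ± 3.79% in KO, and that of Eno1 was 82.4 ± 1.86% and 76.3 ± 3.87% (SD, n = 5; exact permutation p = 0.0317 for each). KO mouse 3, with an Eno1 share of 82.5%, was inside the FL range, and the Eno1 share no longer passed without KO mouse 1, nor that of Eno2 without FL mouse 1 or 2 or KO mouse 1, 2 or 4 (exact permutation p = 0.0556 in each). The KO means of the Eno1 and Eno2 shares without KO mouse 3 were 74.7 and 24.6%, as a description. Pklr, the other pyruvate kinase gene, had a log2 fold change of 0.04 (adjusted p = 0.848 from limma), and Pkm made up 97.0 ± 0.57% of pyruvate kinase FPKM in FL and 96.0 ± 0.68% in KO (SD, n = 5; exact permutation p = 0.0635). Bpgm and Eno3 also had no call. The Eno3 share of enolase FPKM was 0.41 ± 0.08% in FL and 0.65 ± 0.17% in KO, without overlap (SD, n = 5, exact permutation p = 0.00794).

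Upstream of the list, 11 genes of glucose entry and phosphorylation gave 9 tested, with 2 lower and 2 higher in KO, beside 16.5% and 9.05% of all tested genes. With the exact Wilcoxon rank test 1 was lower. Both glucose transporters that passed fell. Slc2a2 (GLUT2), the main transporter of mouse β cells, fell by 0.70 ± 0.12 on the log2 scale (SE; adjusted p = 0.00211 from limma), and Slc2a1 (GLUT1) fell by 0.69 ± 0.15 (SE; adjusted p = 0.00653). Slc2a1 was at 40.3 to 50.5 FPKM in FL and at 23.7, 25.1, 42.7, 25.0 and 28.5 FPKM in KO mice 1 to 5, with KO mouse 3 inside the FL range. Slc2a2 in KO mouse 3, at 176 FPKM, was close to KO mouse 2, at 175 FPKM, and below all FL mice, which were at 217 to 304 FPKM. Adpgk and Hk3 rose, by 0.42 ± 0.04 and 0.36 ± 0.09 (SE; adjusted p = 7.99e-05 and adjusted p = 0.0152 from limma), but Hk3 averaged under 1 FPKM in FL and was tested only through its KO level. With a minimum mean of 5 FPKM 1 gene was called higher. The counts without KO mouse 3 were again 2 and 2, and Slc2a1 fell by 0.83.

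Regulators of phosphofructokinase and enzymes of the opposing direction gave 8 tested of 10, with 3 lower and 0 higher. Pfkfb2 and Pfkfb3 make fructose-2,6-bisphosphate, which activates phosphofructokinase, and Tigar breaks it down. All 3 fell, by 0.45 ± 0.07, 0.65 ± 0.15 and 0.26 ± 0.06 on the log2 scale (SE; adjusted p = 0.00119, adjusted p = 0.00979 and adjusted p = 0.0119 from limma). Pfkfb3 in KO mouse 3, at 10.04 FPKM, was inside the FL range of 8.91 to 14.4 FPKM, while the other KO mice were at 5.66 to 7.27 FPKM. The counts were the same without KO mouse 3, and Pfkfb3 fell by 0.78.

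**Figure D5:**
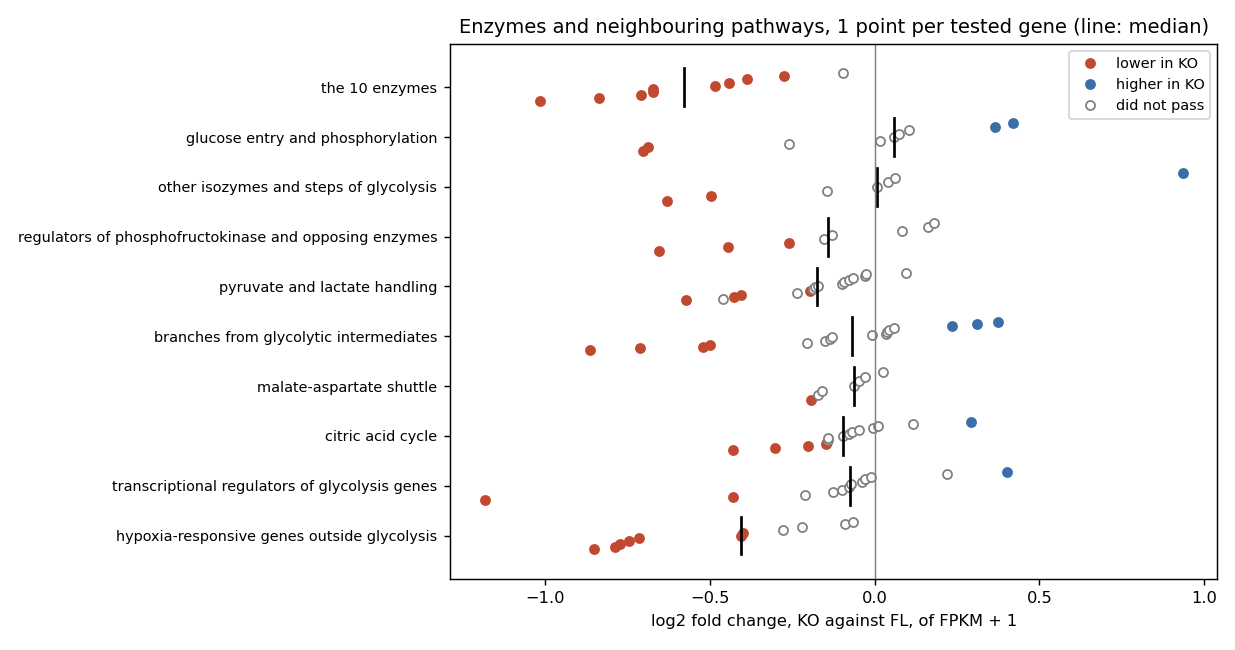
Log2 fold change (horizontal axis, KO against FL, log2(FPKM + 1) scale) of each tested gene of the 10 enzymes and of 9 neighbouring lists, coloured where the gene passed an adjusted p of 0.05 from limma, with the median of each list as a line. The medians of the enzymes and of the hypoxia-responsive genes were -0.58 and -0.41, and those of the other lists were between -0.18 and 0.06.

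Downstream, pyruvate and lactate handling gave 4 lower and 0 higher of 16 tested, beside 16.5% and 9.05% of all tested genes, with a median of -0.18. Pdk1, a kinase that inhibits pyruvate dehydrogenase, fell by 0.57 ± 0.15 on the log2 scale (SE; adjusted p = 0.0157 from limma), from 35.1 ± 2.65 to 23.9 ± 6.89 FPKM (SD, n = 5). KO mouse 3, at 35.8 FPKM, was inside the FL range. Ldhb and Pdp1 fell by 0.41 ± 0.07 and 0.43 ± 0.07 (SE; adjusted p = 0.00278 and adjusted p = 0.00214 from limma). Ldha was at 10.1 to 26.2 FPKM in FL and at 12.3 to 21.04 FPKM in KO, with no call (adjusted p = 0.82 from limma). Genes of the citric acid cycle gave 5 lower and 1 higher of 15 tested, among them Fh1, fumarase, which fell by 0.43 ± 0.07 (SE; adjusted p = 0.000887 from limma), and Ogdh, which rose by 0.29 ± 0.06 (SE; adjusted p = 0.00626 from limma). The malate-aspartate shuttle passes the electrons of NADH made by Gapdh into mitochondria. Its genes gave 1 lower (Mdh2) and 0 higher of 7 tested, near the 16.5% of all tested genes called lower. Without KO mouse 3, pyruvate and lactate handling gave 5 lower, the citric acid cycle 4 lower and 1 higher, and the shuttle 1 lower, and Pdk1 fell by 0.72. Without FL mouse 3, KO mouse 1 or KO mouse 4 the citric acid cycle count was 2 lower, without FL mouse 1 or FL mouse 2 it was 3, and Mdh2 lost its call without FL mouse 1 or 3 or KO mouse 1, 4 or 5.

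Branches from glycolytic intermediates gave 4 lower and 3 higher of 16 tested, beside 16.5% and 9.05% of all tested genes. Gpd2, the mitochondrial enzyme of the glycerol phosphate shuttle, fell by 0.86 ± 0.07 on the log2 scale (SE; adjusted p = 1.60e-05 from limma), from 31.9 ± 1.87 to 17.1 ± 2.004 FPKM (SD, n = 5). Its KO values were 15.8, 20.5, 17.4, 16.3 and 15.6 FPKM, so KO mouse 3 was not set apart. Gpd1, its cytosolic counterpart, rose by 0.31 ± 0.06 (SE; adjusted p = 0.00307 from limma). Gys1, glycogen synthase, fell by 0.71 ± 0.15, and Rpia, of the pentose phosphate pathway, fell by 0.52 ± 0.09 (SE; adjusted p = 0.00634 and adjusted p = 0.00176 from limma). This list gave 5 lower and 2 higher without KO mouse 3, and Gys1 and Gpd2 fell by 0.83 and 0.87.

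Of 13 transcriptional regulators of glycolysis genes, 12 were tested, 2 fell and 1 rose, with and without KO mouse 3, which is near the shares of 16.5% and 9.05% over all tested genes. Mlxipl (ChREBP), which acts on glycolysis and lipogenesis genes when glucose is high, fell by 1.18 ± 0.07 on the log2 scale (SE; adjusted p = 6.88e-07 from limma). It was at 41.5 to 51.7 FPKM in FL and at 20.9, 20.8, 21.4, 19.5 and 18.4 FPKM in KO, so KO mouse 3 did not approach FL. Egln1, a prolyl hydroxylase that marks hypoxia-inducible factors for breakdown, fell by 0.43 ± 0.11 (SE; adjusted p = 0.015 from limma), with KO mouse 3, at 40.7 FPKM, inside the FL range of 38.4 to 42.9 FPKM. Epas1 (HIF-2α) rose by 0.40 ± 0.07 (SE; adjusted p = 0.00245 from limma). Hif1a, Arnt, Vhl, Mlx, Mlxip, Txnip, Myc, Usf1 and Usf2 had no call, with log2 fold changes from -0.21 to 0.22.

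Hypoxia-responsive genes outside glycolysis gave 7 lower and 0 higher of 11 tested, with a median of -0.41 and 9 of 11 highest in KO mouse 3 among KO mice. P4ha2, Ankrd37, P4ha1, Bnip3 and Mif fell by 0.85, 0.79, 0.77, 0.75 and 0.72 on the log2 scale (adjusted p from 0.00181 to 0.0226 from limma). Bnip3, a mitophagy receptor, was at 140, 162, 129, 115 and 134 FPKM in FL mice 1 to 5 and at 74.2, 79.9, 133, 69.6 and 60.2 FPKM in KO mice 1 to 5. In Ankrd37, Bnip3 and Mif KO mouse 3 was inside the FL range, as in Gpi1, Tpi1, Pgk1 and, at its lower edge, Eno1. Vegfa and Ndrg1 fell by 0.40 and 0.41 without overlap (adjusted p = 0.00171 and adjusted p = 0.000563 from limma), and in Ndrg1 KO mouse 3 was not the highest. Bnip3l, Ddit4, Kdm3a and Higd1a had no call. Without KO mouse 3, 8 were lower and 0 higher, Kdm3a being the one added (log2 fold change -0.34; adjusted p = 0.0212 from limma), and Ankrd37, P4ha2, Bnip3, P4ha1 and Mif fell by 1.02, 0.99, 0.93, 0.93 and 0.86.

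Levels of cell type markers were set beside these results, and their part in them was not tested. Of 10 β cell markers 7 were tested and 6 fell, with Ins1, Ins2 and Iapp listed at 0 in all libraries, which in islets may be failed estimates and are not levels. Their summed level was 2273 to 2844 FPKM in FL and 1511 to 2124 FPKM in KO, with KO mouse 3 the highest KO mouse. It was the highest KO mouse for 5 of the 7 tested markers, and the count of 6 lower was the same without it. Of 5 tested α cell markers 2 fell, with Gcg likewise listed at 0, and of 4 δ and PP cell markers 1 fell. The 10 acinar markers gave no call, with sums of 11748, 11662, 8221, 4403 and 6210 FPKM in FL mice 1 to 5 and 5247, 2919, 3091, 8727 and 21610 FPKM in KO mice 1 to 5. KO mouse 3 was thus low in acinar transcripts and high in the enzymes, while FL mouse 4 was lowest of FL in both. Without KO mouse 3, stromal markers rose in 4 of 5, endothelial markers in 5 of 8, and duct markers gave 1 lower and 2 higher, with the other marker counts the same. With all mice, stromal markers rose in 5 of 5 tested, with sums of 12.2 to 20.8 FPKM in FL and 24.6 to 34.3 FPKM in KO, and KO mouse 3 was the lowest KO mouse. Endothelial markers rose in 4 of 8, with sums of 177 to 208 FPKM in FL and 201 to 266 FPKM in KO, KO mouse 3 being the lowest KO mouse. Leukocyte markers rose in 2 of 6, with sums of 122 to 167 FPKM in FL and 175 to 198 FPKM in KO. Duct markers gave 1 lower and 1 higher of 5, the latter passing the filter on low values only through its KO level. Schwann and red blood cell markers gave no call.

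Reads of near-identical copies could be split from these enzymes in counting. The 10 copies listed (Eno1b, Aldoart1, Aldoart2, Pgk1-rs7, Pgk1-ps3, Tpi-rs2, Tpi-rs8, Tpi-rs11, Gapdh-ps14 and Gapdh-ps15) reached at most 1.32 FPKM, in Tpi-rs11, and 4 of them were at 0 in every library.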

How the data were processed

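Stranded poly(A) RNA-Seq libraries, 1 per mouse, were read as single ends of 75 nt. Per the labels' processing notes, the authors used STAR 2.5.2a and Cuffnorm 2.2.1 on mm10; the annotation release is not given in the sources used here. The deposited values are FPKM per gene and mouse, normalized by Cuffnorm and used as deposited. The difference between KO and FL was fitted on log2(FPKM + 1) by limma 3.58.1 (R 4.3.3; moderated with a mean-variance trend, no covariate) for the 13065 genes that averaged 1 FPKM or more in either group, and p-values were adjusted over all of them (Benjamini-Hochberg). Fold changes on this scale understate the change of low genes. Exact permutation tests, two-sided, served for shares, and 5 against 5 mice allow no p below 0.00794. The labels do not say more of the replicates than 1 mouse each, and replicate numbers come from the titles. Gene positions are from GENCODE M21 (GRCm38), which matched all 10 identifiers without their version and 4 with it. Promoters are from RefSeq.

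The enzymes and gene lists were chosen with earlier results of these data known. All 10 enzymes were named, with, per list, counts, called genes of the largest change and isozymes of the same steps, all tested genes of the regulator and hypoxia lists, and the 5 genes most like the enzymes between mice. Alternatives were other pseudocounts (0.1 and 0.01), filters, scalings, variance models and tests, a threshold of 0.01, the replicate number as a block, and leaving out each mouse. The test was tried on simulated data. Summaries used Python 3.11.15, pandas 2.3.3, numpy 2.4.6, scipy 1.17.1 and matplotlib 3.10.9. Values of 2 genes of these lists are not reported here, though both are part of the counts and medians.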

Additional observations from a re-analysis of the deposited data

Results flagged for a closer look

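In 28 groups of 5 mice (the 10 enzymes, Fitm2 and the phosphofructokinase shares, FL and KO each), 3 mice stood apart from their group by Dixon's criterion, whose critical value for 5 samples is 0.71; chance gives about 1 in 20 groups. Pfkl in FL mouse 4, at 91.9 FPKM, lay below the other FL mice by 0.865 of the group's range. Pgk1 in KO mouse 3, at 65.1 FPKM, lay above the other KO mice by 0.792 of the range. Pkm in FL mouse 2, at 426 FPKM, lay above the other FL mice by 0.714 of the range. The causes were not tested.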

How the results depend on the processing

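Of the 10 enzymes, 8 or 9 were called lower under each other scaling, filter, pseudocount and variance model and without each mouse in turn (lowest 8, highest 9), and 0 were called higher under any setting. At an adjusted p of 0.01, 6 were called, and with the exact Wilcoxon rank test 5 were, where Gpi1, Tpi1, Pgk1 and Eno1 had adjusted p of 0.102, 0.0642, 0.151 and 0.0642. No log2 fold change of an enzyme changed sign. Over all tested genes, the counts of 2150 lower and 1183 higher were 1044 and 622 at 0.01. Rescaling by median ratio, quantiles or to the same sum gave 1516 and 1625, 1708 and 1494, and 1536 and 1470. The citric acid cycle count of 5 lower was 2 under median ratio, quantile and same-sum scaling and under the block, and Mdh2 lost its call under these 3 scalings. Same-numbered FL and KO mice did not deviate together over all tested genes (r from -0.10 to 0.00), and 0 of 5 FL mice correlated best with their own number. With the replicate block 9 enzymes were called lower and 0 higher, and 1494 and 874 genes of all. For the Pfkl share the block left the difference at -14.6 percentage points with p = 0.0625 (exact sign-flip permutation, n = 5 pairs, the smallest it allows), and without each mouse in turn the difference was from -16.7 to -13.3. KO mouse 3 was above the KO centre for all 10 enzymes under each of the 3 other ways of centring or scaling. Depth in reads is unknown, so no counting error was set beside these values.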
